A study of Mus musculus with 12 samples.

Results

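The average effect of paclitaxel on 4T1 mammary tumours was measured by setting 6 libraries from paclitaxel-treated tumours against 6 libraries from tumours that had received none. These are all 12 libraries of the series, divided by whether paclitaxel was part of the treatment, in an additive model in which MBQ-167 (given or not given) was a covariate. The 6 libraries with paclitaxel are 3 from the paclitaxel group (5 mg/kg, 1 dose a week) and 3 from the combination group (the same paclitaxel dose together with 100 mg/kg MBQ-167, 5 doses a week). The 6 without it are 3 from vehicle and 3 from MBQ-167 alone at that dose. All the tumours grew in BALB/c mice from 300000 luciferase-expressing 4T1 cells placed in mammary fat pad 4. Treatment ran from day 14 for 2 weeks, and tumours were taken on day 28. The tumour RNA holds host cells as well as 4T1 cells, which are 1 established line labelled wild type. The labels speak of biological replicates but do not tie each library to its own mouse, so each p-value reflects the scatter among these libraries only, which may be technical. They mention 2 occasions of injection without assigning libraries to them. The code numbers of the 6 paclitaxel libraries are all above those of the other 6, and the sources used here do not say whether the codes follow an order of handling, so such an order and the drug cannot be told apart.

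Paclitaxel is a taxane that binds beta-tubulin inside the microtubule, stabilises the polymer and disturbs the mitotic spindle. Cells that leave a disturbed mitosis can carry damaged or unevenly divided chromosomes, and the drug also acts on non-dividing cells through the microtubule tracks that carry cargo. MBQ-167 is an inhibitor of Rac and Cdc42, small GTPases that organise actin. An additive model gives each gene 1 paclitaxel effect, the average over tumours with and without MBQ-167, as a log2 fold change with its standard error (SE). The same effect was also read separately in each MBQ-167 state, as paclitaxel minus vehicle and as combination minus MBQ-167, which share no library, and the difference of those effects was tested.

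Libraries held 11540557 to 17001562 counts, and total counts did not separate the groups (exact permutation p = 0.64, two-sided, within MBQ-167 states). Epithelial markers of the 4T1 cells were present throughout: Krt8, a keratin, was at 277 to 694 CPM (counts scaled to library size) without paclitaxel and 295 to 370 CPM with it. Base composition separated the libraries. For each library, GC content of a gene's transcripts was correlated, across genes, with that library's deviation from the mean level, and the coefficient was -0.292 to -0.0330 in the paclitaxel libraries and 0.00069 to 0.304 in the others, with no overlap. An exact two-sided permutation test gave p = 0.005, the smallest that its 400 assignments allow (adjusted p = 0.015 over 3 library measures). An abundant trio of features on chromosome 17 took 26.9% ± 7.54 (SD, n = 6) of counts with paclitaxel and 33.6% ± 3.14 without (exact permutation p = 0.1). Vehicle 3 stood apart for neutrophil genes: the 19 tested neutrophil markers summed to 2159 CPM in this library, the highest without paclitaxel, against a median of 858 CPM over those 6.

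The genes that rose with paclitaxel included 10 splicing factors, 21 Zfp zinc finger genes and 8 DNA damage response genes, groups put together after the values were seen. Those that fell included 3 neutrophil genes, the glucose transporter gene Slc2a3 and the sterol-regulated gene Insig1. Of 18252 genes tested, 183 passed an adjusted p of 0.05 (1.00%): 147 were higher (0.805%) and 36 lower (0.197%) with paclitaxel. The changes were moderate. The median log2 fold change was 0.59 in the higher genes (0.32 to 1.48) and -0.62 in the lower genes (-3.08 to -0.42), against -0.005 over all genes. In 128 of the 183 the 6 and 6 libraries did not overlap (113 higher, 15 lower), a separation that 2.01% of all tested genes showed. At an unadjusted p under 0.05, 3253 genes (17.8%) differed, and the smallest adjusted p was 0.02604, so the called genes lie close to the threshold.

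The calls changed with single libraries. No gene passed without vehicle 1, vehicle 2, paclitaxel 1, paclitaxel 2 or paclitaxel 3, and the smallest adjusted p in those 5 fits was 0.0606 to 0.0864. Without MBQ-167 1 only Hdc passed. Without combination 1 there were 47 higher and 11 lower genes, without combination 3 there were 79 and 20, and without MBQ-167 3 there were 96 and 52. The size of the effects moved far less than the calls. Over all 12 such fits the median of the same 147 genes was 0.54 to 0.65 and that of the 36 genes -0.56 to -0.67, and every one of the 183 kept its sign. The genes were chosen with all 12 libraries, of which each such fit keeps 11, so similar sizes and signs are favoured. Since the calls changed, several genes below are given with their range of log2 fold changes over these 12 fits.

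**Figure D1:**
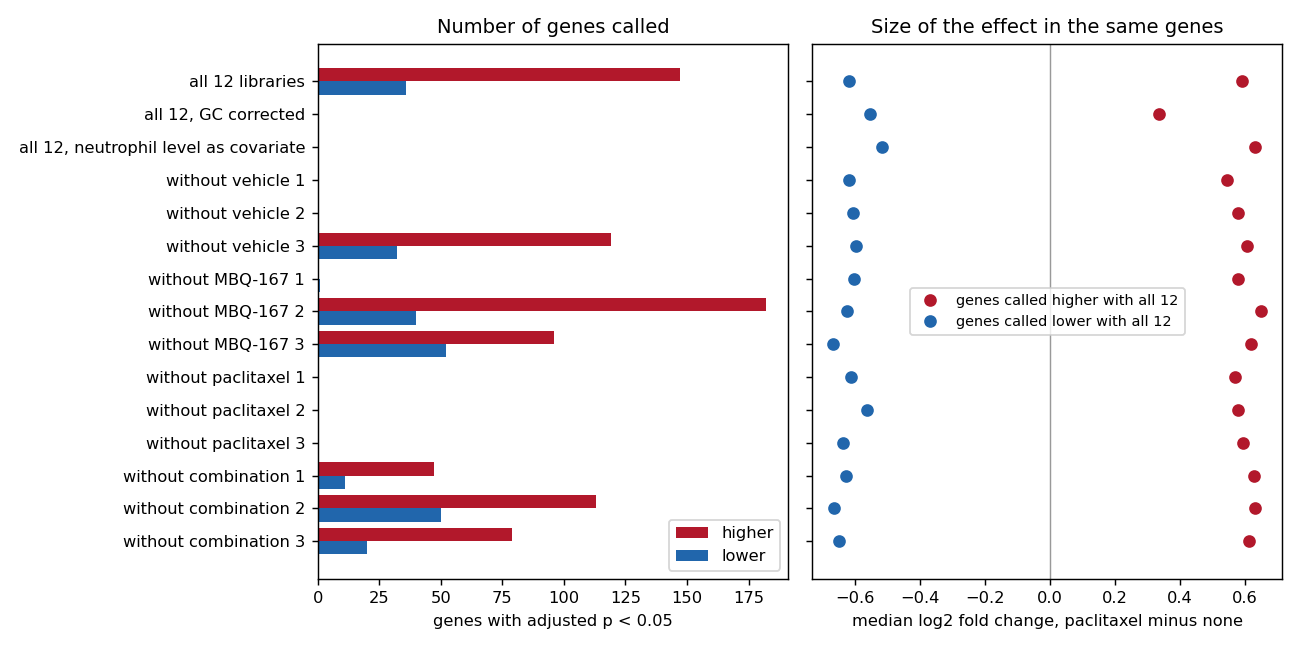
Left, number of genes with an adjusted p under 0.05 in the additive model (horizontal axis), higher and lower with paclitaxel, with all 12 libraries, with 2 adjustments, and with each library left out in turn. Right, median log2 fold change of the same 147 higher and 36 lower genes in each fit; the counts fall to 0 in several fits while the medians stay near 0.59 and -0.62 except for the higher genes after GC correction, at 0.33.

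The called genes differed in base composition. The median transcript GC content was 41.3% in the higher genes (quartiles 38.8% and 43.3%) and 54.5% in the lower genes, against 50.3% over all tested genes, and 143 of 146 higher genes with a value lay under the overall median. The higher genes also had long transcripts, with a median summed exon length of 6871.5 bases against 3549 over all genes and 2831.5 in the lower genes. Tested genes were divided by GC content into 5 bins of equal size. In the bin with the lowest GC content, 124 were called higher and 1 lower, and the median of the whole bin was 0.25. In the bin with the highest GC content, 1 was called higher and 13 lower, and the median was -0.12. The slope had the same direction in both MBQ-167 states: from 0.35 to -0.17 without MBQ-167, and from 0.15 to -0.06 with it. After a correction for GC content in each library no gene passed (edgeR; 2214 genes at an unadjusted p under 0.05, smallest adjusted p 0.0644). The median of the 147 higher genes then was 0.33, with 138 of 146 above 0, and that of the 36 lower genes was -0.55, with 36 below 0. The lower genes thus moved little under the correction, and the higher genes lost part of their size.

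**Figure D2:**
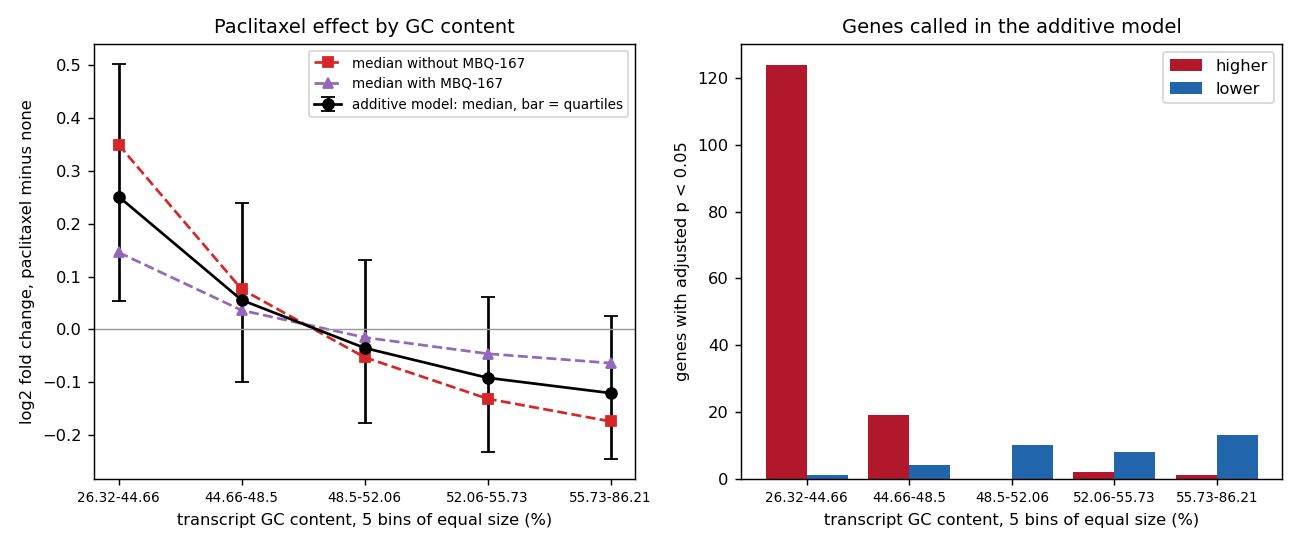
Left, median log2 fold change for paclitaxel (vertical axis; bars are quartiles over genes) in 5 equal bins of the tested genes by transcript GC content in percent, for the additive model and for each MBQ-167 state. Right, number of genes called higher and lower in each bin; 124 of the higher genes fall in the lowest bin, where the median is 0.25.

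Splicing regulators were among the genes that rose. Luc7l3 (ENSMUSG00000020863, chromosome 11, 94287890 to 94321988, GRCm38), a U1 snRNP-associated splicing factor, ran from 43.0 to 83.6 CPM (median 67.1) without paclitaxel and from 96.8 to 124 CPM (median 113) with it. All 6 treated libraries lay above all 6 others, and the log2 fold change of 0.85 ± 0.13 (SE, adjusted p = 0.02604, 0.76 to 0.92 with 1 library left out) became 0.57 after GC correction. Prpf39, another U1-associated protein, was at 36.9 to 68.5 CPM without paclitaxel and 69.3 to 101 CPM with it, a rise of 0.69 ± 0.13 (adjusted p = 0.03385). Here the highest library without the drug came within 1 CPM of the lowest with it. A list of 35 tested SR-type, LUC7-type and associated splicing genes, assembled after these values were seen, held 10 called higher and 0 lower (28.6%, against 0.805% of all genes), with a median of 0.29. Besides Luc7l3 and Prpf39 they were Thoc2 (0.68), Arglu1 (0.60), Rbmx (0.55), Pnisr (0.51), Srsf10 (0.45), Tial1 (0.42), Srsf3 (0.40) and Srsf7 (0.37). The list's median GC content was 45.1%, and its median log2 fold change fell to 0.14 with GC correction. Of 20 hnRNP genes, which coat and process nascent RNA, 2 rose: Hnrnpu (0.66) and Hnrnph1 (0.56).

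Zinc finger genes made up 21 of the 147 higher genes. Of 339 tested genes with a Zfp symbol, a group also chosen after the values were seen, 21 were higher and 1 lower (6.19% and 0.295%, against 0.805% and 0.197% of all genes). The median over all 339 was 0.20, or 0.10 after GC correction. Zfp935 (ENSMUSG00000055228, chromosome 13, 62453715 to 62558511) was at 1.97 to 2.97 CPM without paclitaxel (median 2.33) and 4.43 to 5.46 CPM with it (median 5.23). Its 6 treated libraries all stood above the others, and the gain was 1.05 ± 0.17 on the log2 scale (adjusted p = 0.02786; 0.98 to 1.12 over the leave-one-out fits; 0.57 after GC correction). Zfp58 was similar, at 1.35 to 1.82 CPM against 2.53 to 4.11 CPM (1.13 ± 0.20, adjusted p = 0.03051). Many of these are KRAB-type genes in clusters of close copies, whose reads can be split between paralogs, so single members are uncertain. Zfp638, a better expressed RNA-associated zinc finger gene, rose from 57.2 to 74.5 CPM without the drug to 92.7 to 115 CPM with it (0.58 ± 0.087, adjusted p = 0.02604). The 1 lower member was Zfp36, an RNA-decay factor of another kind that is described with the immediate early genes.

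Among the higher genes were 8 that respond to damaged DNA or stalled replication. Each of the 8 was above 0 in both MBQ-167 states, but this does not mark them out. All 183 called genes had the same sign in both states, which selection on an average favours. Etaa1 (ENSMUSG00000016984, chromosome 11, 17938756 to 17953875), which activates the ATR kinase at exposed single-stranded DNA, was at 12.3 to 14.4 CPM (median 13.1) in the 6 libraries without paclitaxel. With the drug it was at 16.97 to 23.2 CPM (median 20.5). No libraries overlapped, and the effect was 0.64 ± 0.10 (adjusted p = 0.02786; 0.60 to 0.70 over the leave-one-out fits). Atr itself, the kinase that guards replication forks, ran from 35.8 to 49.3 CPM without and from 56.5 to 70.9 CPM with paclitaxel (0.50 ± 0.090, adjusted p = 0.03213). Brca1, which repairs double-strand breaks by homologous recombination, ran from 16.8 to 21.5 CPM and from 24.97 to 30.1 CPM (0.45 ± 0.094, adjusted p = 0.04225). After GC correction these effects were 0.28 for Etaa1, 0.0038 for Atr and 0.35 for Brca1. A list of 45 such genes, chosen with these values in view, had 8 higher and 0 lower (17.8%, against 0.805% of all genes higher) and a median of 0.23, or 0.09 after GC correction. The other 5 were Slf1 (0.67), Atad5 (0.49), Rev3l (0.41), Rif1 (0.40) and Shprh (0.33). Xpo1, the exporter that carries proteins out of the nucleus, had closely spaced libraries within each group: 167 to 182 CPM without and 215 to 245 CPM with paclitaxel (0.41 ± 0.072, adjusted p = 0.03051; 0.09 after GC correction).

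**Figure D3:**
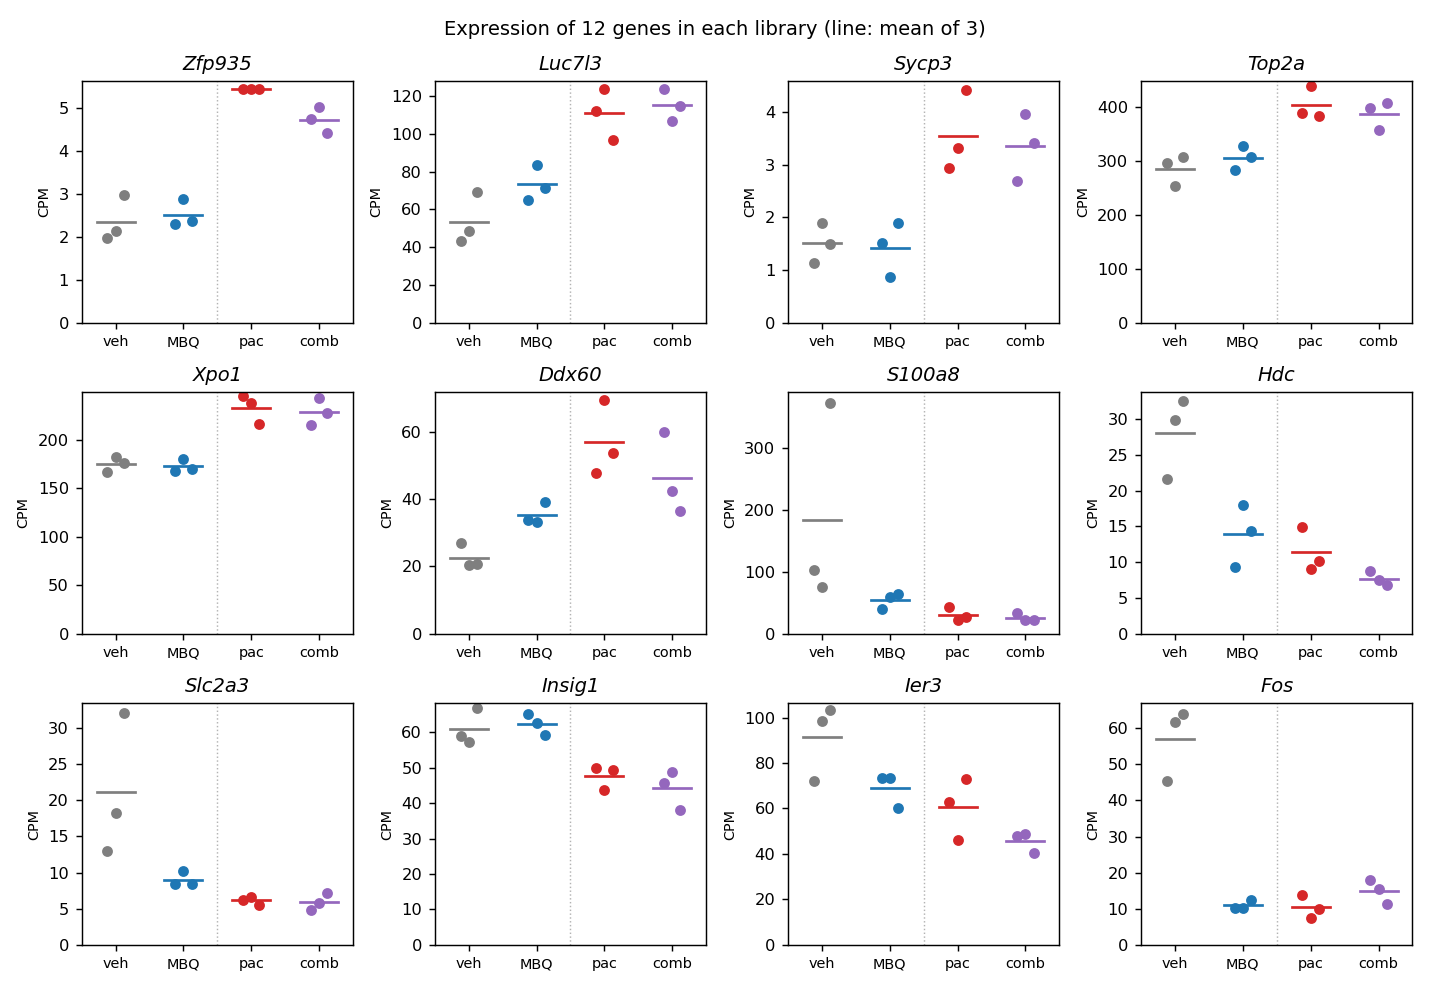
CPM (vertical axes, starting at 0) of 12 genes in every library; points are single libraries, lines the means of 3, with vehicle (veh), MBQ-167 (MBQ), paclitaxel (pac) and combination (comb) from left to right. The dotted line separates libraries without and with paclitaxel; Luc7l3, Zfp935, Sycp3, Top2a and Xpo1 do not overlap across it, while Fos is high only in vehicle, with 57.1 CPM on average.

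The largest rises with separated groups were in weakly expressed genes. Sycp3 (ENSMUSG00000020059, chromosome 10, 88459569 to 88473236), a protein of the meiotic synaptonemal complex, was at 0.867 to 1.90 CPM without paclitaxel (median 1.49) and 2.70 to 4.42 CPM with it (median 3.37). The 6 treated libraries were all above the 6 others, and the effect of 1.24 ± 0.24 (adjusted p = 0.03503) was the same without and with MBQ-167, at 1.24 in each. Its exons overlap those of Chpt1 on the other strand, and the strandedness of the counting is not given, so reads of the pair cannot be told apart. The orphan receptor Gpr22 was at 0.831 to 3.78 CPM and 4.42 to 7.90 CPM (1.31 ± 0.27, adjusted p = 0.04473), and Lrrn3, a neuronal leucine-rich repeat protein, at 0.680 to 1.34 CPM and 2.17 to 2.97 CPM (1.20 ± 0.24, adjusted p = 0.03889). The remaining 9 of the 12 largest were C79798 (1.48), Gm14325 (1.44), Gm37216 (1.34), Gm13230 (1.25), D130019J16Rik (1.19), 6820402A03Rik (1.18), Gm26652 (1.18), 5430403G16Rik (1.18) and Gm37639 (1.16). Among them are an antisense transcript, a lincRNA, a pseudogene and 4 features of the annotation's class TEC, which awaits experimental support and to which 10 of the 147 higher genes belong. Over the leave-one-out fits these 12 genes passed in 1 to 6 fits, and their GC-corrected effects were 0.54 to 1.12.

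Lists of genes of dividing cells, the classic setting of taxane action, gave few calls. Called genes outside these lists, such as Knl1, Kif20b, Cenpi and Orc4, are not counted here. Top2a (ENSMUSG00000020914, chromosome 11, 98992943 to 99024189), the topoisomerase that untangles chromosomes before they separate, was at 253 to 327 CPM without paclitaxel (median 302) and 358 to 439 CPM with it (median 393). The groups did not overlap, and the effect was 0.42 ± 0.085 (adjusted p = 0.03889; 0.38 to 0.45 over the leave-one-out fits; 0.22 after GC correction). It was the only edgeR call among 28 mitosis and spindle checkpoint genes, whose median was 0.03. Voom called 1 of the 28 and DESeq2 2, and 8 had an unadjusted p under 0.05 in edgeR. None of 24 DNA replication genes passed in edgeR or voom, 1 did in DESeq2, and 3 had an unadjusted p under 0.05 (median -0.02). Mki67, a marker of cycling cells, ran from 181 to 237 CPM and from 178 to 252 CPM, which overlap (0.19 ± 0.098, adjusted p = 0.319). Of 18 p53 targets only Ccng1, a cyclin that acts in p53 feedback, passed: 38.3 to 47.6 CPM without and 50.6 to 65.7 CPM with paclitaxel (0.43 ± 0.087, adjusted p = 0.03889). Its sign turned with GC correction, to -0.07 (adjusted p = 0.8617). Cdkn1a, the p53-induced inhibitor of cyclin-dependent kinases, had overlapping groups and a difference of -0.21 ± 0.13 (adjusted p = 0.4209). None of 16 BCL2-family and related apoptosis genes was called in edgeR, DESeq2 or voom (1 at an unadjusted p under 0.05; median 0.01).

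The genes of the drug's own target did not pass in the additive edgeR fit. Of 15 tested tubulin genes 0 were called in edgeR and voom and 1 in DESeq2, with 4 at an unadjusted p under 0.05, a median of -0.29 and 12 below 0. Read separately, edgeR called 3 of the 15 lower without MBQ-167 (median -0.32) and 0 with it (median -0.19). Tubb5, a main beta-tubulin, was at 841 to 1262 CPM without paclitaxel (median 957) and 763 to 881 CPM with it (median 840). These ranges overlap, and the difference was -0.29 ± 0.11 (adjusted p = 0.1662). Tubb2b, another beta-tubulin, was at 1.90 to 6.15 CPM and 1.12 to 3.42 CPM (-0.53 ± 0.31, adjusted p = 0.3854). Tubb3, the isotype often discussed in taxane resistance, was too low to test, with 37 counts over the 12 libraries. None of 26 microtubule-associated genes passed in edgeR, DESeq2 or voom (2 at an unadjusted p under 0.05), at a median of -0.09. The same holds for 8 drug efflux transporters (0 at an unadjusted p under 0.05), at a median of -0.02. The P-glycoprotein genes Abcb1a and Abcb1b, which pump taxanes out of cells, gave -0.62 ± 0.35 (adjusted p = 0.375) and -0.21 ± 0.17 (adjusted p = 0.54). Both were highest in vehicle 3, at 16.3 and 114 CPM, and without that library their differences were -0.10 and -0.01.

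Neutrophil genes included the largest fall among the called genes. Ngp (ENSMUSG00000032484, chromosome 9, 110419747 to 110423012), a granule protein of maturing neutrophils, ran from 7.55 to 112 CPM without paclitaxel (median 11.7) and from 0.743 to 6.14 CPM with it (median 1.36). Every treated library lay below every other one, although the value of 112 CPM in vehicle 3 stood far from the rest. The effect was -3.08 ± 0.70 (adjusted p = 0.04981), with a range of -3.80 to -2.09 over the leave-one-out fits. The calprotectin subunits S100a8 (ENSMUSG00000056054, chromosome 3, 90668978 to 90670035) and S100a9 fell too. S100a8 was at 39.2 to 374 CPM (median 70.4) without and 21.4 to 43.6 CPM (median 24.6) with paclitaxel, and its groups overlapped slightly (-1.85 ± 0.39, adjusted p = 0.04436). S100a9 ran from 52.2 to 403 CPM and from 33.5 to 82.5 CPM (-1.44 ± 0.32, adjusted p = 0.04698).

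Those 3 were the called members of 19 tested neutrophil markers (15.8% lower, against 0.197% of all genes). The list's median was -1.59, and 18 of 19 were below 0, with Mmp9 at 0.16 the exception. Values of members that did not pass included Retnlg at -2.50, Ltf at -2.21 and Cxcr2 at -1.78. The median without vehicle 3 was -1.16, which is the smallest over the leave-one-out fits, so the list stayed low without the library with most neutrophil transcript. Fewer neutrophils and less of these transcripts per cell cannot be told apart in bulk tumour RNA. The summed markers were at 747 to 2159 CPM without paclitaxel and 522 to 675 CPM with it, 2 ranges that do not overlap, and none of the 20 markers was at 0 in all libraries. With the neutrophil level of each library as a covariate no gene of the whole comparison passed (edgeR; 1887 at an unadjusted p under 0.05, smallest adjusted p 0.204), while the medians of the called genes were 0.63 and -0.52. That level, a mean log2 CPM, was 3.02 to 5.70 without paclitaxel and 2.13 to 2.92 with it. Since these ranges do not overlap, a fit with this covariate can hardly separate the neutrophil level from the drug. Erythroid markers, which include the globins, had 0 of 7 called in edgeR, 3 in DESeq2 and 2 in voom, with 6 at an unadjusted p under 0.05 and a median of -1.59, or -0.46 with the neutrophil covariate. Their median was -2.22 without MBQ-167 and -0.98 with it. Summed, they were at 259 to 266 CPM in vehicle and 46.4 to 108 CPM in MBQ-167 alone. The paclitaxel group had 17.5 to 108 CPM and the combination 34.8 to 69.2 CPM, which overlap with MBQ-167 alone. Hba-a1 was at 3.76 to 19.6 CPM without and 0.948 to 6.65 CPM with paclitaxel (-1.59 ± 0.40, adjusted p = 0.06548), and its near-identical copy Hba-a2 makes the split of reads between them uncertain.

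Several further lower genes are given singly, since no list held them. Hdc (ENSMUSG00000027360, chromosome 2, 126593667 to 126619299), the enzyme that makes histamine, ran from 9.31 to 32.5 CPM without paclitaxel (median 19.8) and from 6.85 to 14.9 CPM with it (median 8.91). The ranges overlapped between the MBQ-167 and paclitaxel groups, yet the call, at -1.08 ± 0.18 (adjusted p = 0.03051), held in 7 of the 12 leave-one-out fits, the most of any gene. C5ar1, the receptor for complement fragment C5a, was at 29.8 to 47.6 CPM and 19.3 to 28.0 CPM without overlap (-0.58 ± 0.12, adjusted p = 0.04564). Bdkrb2, a bradykinin receptor, was at 11.8 to 17.3 CPM and 7.11 to 10.8 CPM (-0.74 ± 0.14, adjusted p = 0.03213). Mif (-0.61), an inflammatory cytokine, Plaur (-0.49), the urokinase receptor, Cd9 (-0.66), a tetraspanin, and Ctsl (-0.52), a lysosomal protease, fell as well and were picked out after their values were seen. Further genes among the 12 largest separated falls were Mgam (-1.98), an alpha-glucosidase, Rem2 (-1.05), a small GTPase, Padi1 (-0.72), a peptidylarginine deiminase, Dmpk (-0.67), the myotonic dystrophy kinase, Mospd3 (-0.58), Tmem50a (-0.58), Dap (-0.53) and Eml2 (-0.52), a microtubule-associated protein that was not on the list above. Macrophage markers had 0 of 18 called in edgeR, DESeq2 or voom, 1 at an unadjusted p under 0.05 and a median of -0.23.

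Genes of glucose use and sterol synthesis lay mostly below 0, with 1 lower edgeR call each in the glycolysis and cholesterol lists. Slc2a3 (ENSMUSG00000003153, chromosome 6, 122727809 to 122801640), the glucose transporter GLUT3, was at 8.38 to 32.1 CPM without paclitaxel (median 11.5) and 4.83 to 7.11 CPM with it (median 6.01). The groups did not overlap, and the change was -1.20 ± 0.25 (adjusted p = 0.04172; -1.35 to -0.94 over the leave-one-out fits; -1.20 after GC correction). With the neutrophil level as a covariate it was -0.37. It was the 1 called member of 21 glycolysis and glucose transport genes, all 21 of which were below 0 (median -0.33). That count depended on the tool: DESeq2 called 11 of the 21, all lower, and voom 2. Slc2a1, the transporter GLUT1, ran from 150 to 316 CPM and from 138 to 181 CPM (-0.54 ± 0.14, adjusted p = 0.07618), and Eno1, enolase, gave -0.48 ± 0.11 (adjusted p = 0.05133). In the pentose phosphate list of 7 only Rpe, ribulose-phosphate epimerase, was called in edgeR, and it was higher (0.51 ± 0.11, adjusted p = 0.04702), against a list median of -0.32. DESeq2 called 1 of the 7 higher and 2 lower. The exons of Rpe overlap those of Kansl1l on the other strand, which was also called higher (0.65), so their reads cannot be told apart. The hypoxia-induced carbonic anhydrase Car9 was lower (-0.55 ± 0.12, adjusted p = 0.04564), the only edgeR call in 19 hypoxia genes (median -0.09). It shares exon positions with the opposite-strand Gm12454, also called lower (-0.62). DESeq2 called 4 of the 19 hypoxia genes, all lower, and without MBQ-167 edgeR called 7 lower. None of 24 TCA cycle genes passed in edgeR or voom and 2 did in DESeq2 (6 at an unadjusted p under 0.05; median -0.14). For 30 nuclear genes of oxidative phosphorylation these numbers were 0, 0 and 1, with 7 at an unadjusted p under 0.05 and a median of -0.13.

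Insig1 (ENSMUSG00000045294, chromosome 5, 28071363 to 28078662), which retains the sterol sensor complex in the endoplasmic reticulum and is itself a sterol-regulated gene, was at 57.2 to 66.8 CPM without paclitaxel (median 60.9). With paclitaxel it was at 38.0 to 49.9 CPM (median 47.4). All 6 treated libraries were lower, at -0.43 ± 0.085 (adjusted p = 0.03889), with -0.36 without MBQ-167 and -0.50 with it, and -0.54 after GC correction. Cholesterol synthesis genes as a list had this 1 call of 22 in edgeR and voom and 8 in DESeq2, all lower, with a median of -0.35 and 21 members below 0. In 5 of the 22 the 6 and 6 libraries did not overlap, against 2.01% of all genes. Among them were Insig1, Sqle (-0.43, adjusted p = 0.09018) and Srebf2 (-0.38, adjusted p = 0.06165). The list was also close in the MBQ-167 states, at -0.36 and -0.29.

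Immediate early genes, transcribed within minutes of a stimulus, were all below 0 on average, and in 6 of the 20 the effect differed between the MBQ-167 states. Of 20 tested, 2 fell (10%, against 0.197% of all genes; 5 in DESeq2) and the median was -0.51, or -0.13 with the neutrophil covariate. The list median was -0.76 without MBQ-167, where edgeR called 13 of the 20 lower, and 0.006 with it, where it called 0. Ier3 (ENSMUSG00000003541, chromosome 17, 35821684 to 35822923), an anti-apoptotic early gene, ran from 60.3 to 103 CPM without paclitaxel (median 73.5) and from 40.4 to 72.8 CPM with it (median 48.4). Its libraries overlapped, and its effect of -0.59 ± 0.12 (adjusted p = 0.03889) was -0.59 without MBQ-167 and -0.60 with it. Zfp36, which directs inflammatory mRNAs to decay, gave -0.62 ± 0.14 (adjusted p = 0.04695), and Ppp1r15a, which restores translation after stress and was the only call of 18 unfolded protein response genes, gave -0.73 ± 0.16 (adjusted p = 0.0497). Zfp36 and Ppp1r15a overlap opposite-strand genes. Fos, an AP-1 subunit, was not called at -1.05 ± 0.43 (adjusted p = 0.2195): the vehicle libraries averaged 57.1 CPM, and the other 3 groups averaged 10.6 to 14.9 CPM. Its effect was -2.44 without MBQ-167 and 0.43 with it, and the difference of 2.88 passed (adjusted p = 0.005137).

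Interferon-responsive genes had positive medians, and the number called depended on the tool and on the MBQ-167 state. Ddx60 (ENSMUSG00000037921, chromosome 8, 61928087 to 62038244), an antiviral helicase, was at 20.4 to 39.1 CPM without paclitaxel (median 30.1) and 36.4 to 69.4 CPM with it (median 50.8). The ranges overlapped by 1 pair of libraries near 36 to 39 CPM, and the effect was 0.85 ± 0.18 (adjusted p = 0.04564; 0.52 after GC correction and 0.49 with the neutrophil covariate). Ddx60 was the 1 called member of 30 type I interferon genes in edgeR and voom, while DESeq2 called 9, all higher, and the median was 0.52 with 28 above 0. Called genes outside the interferon lists, such as Ifi202b, Mndal and Samd9l, are not counted here. The list reached 0.92 without MBQ-167, where edgeR called 19 of the 30 higher, and 0.09 with it, where it called 0. The difference between the states passed in 1 of the 30. In the interferon gamma list 0 of 25 were called in edgeR and voom and 3 in DESeq2, with 14 at an unadjusted p under 0.05. All 25 were above 0, and the median was 0.74, made of 1.48 without MBQ-167 and -0.16 with it. Within these states edgeR called 18 of the 25 higher without MBQ-167 and 0 with it. The difference between the states passed in 0 of the 25. Of 23 T and NK cell markers 0 were called in edgeR and voom and 1 in DESeq2 (2 at an unadjusted p under 0.05). Their median was 0.42, but 0.06 without paclitaxel 2 and -0.51 with the neutrophil covariate, and they summed to 20.3 to 63.6 CPM without and 46.2 to 90.1 CPM with paclitaxel. With the neutrophil covariate the medians were 0.08 for type I and -0.06 for gamma genes. The covariate does not overlap between libraries with and without paclitaxel, so these medians do not show what the neutrophil level accounts for. The part of cell composition in these values was not tested further.

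The promoter of Ddx60 is shown because it was the only listed interferon gene called in the additive edgeR fit. Its sequence also carries the element that interferon-activated factors bind. The stretch is chr8:61927837-61928136 (GRCm38.p6, plus strand, from RefSeq), 250 bases before to 50 after the start, with the core of the interferon-stimulated response element in capitals (GAAA, any pair of bases, GAAA; both strands searched).
Ddx60 promoter: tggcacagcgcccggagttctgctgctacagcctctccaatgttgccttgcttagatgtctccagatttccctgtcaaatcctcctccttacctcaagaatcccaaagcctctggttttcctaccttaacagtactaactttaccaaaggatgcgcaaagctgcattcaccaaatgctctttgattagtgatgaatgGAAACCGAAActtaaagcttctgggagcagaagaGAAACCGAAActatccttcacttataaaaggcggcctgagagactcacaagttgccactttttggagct
The core occurs in 2 copies, which begin 53 and 19 bases before the start. Among RefSeq promoters of this length it was found in 3.44% of all 32851 and in 11 of 22 promoters of the type I interferon list (50%), which matched 20 of its 30 genes. Promoters of the genes higher with paclitaxel held it in 8 of 135 (5.93%, 114 of 147 genes matched). The CCAAT box, the binding letters of NF-Y, was in 49.6% of those 135, in 44.4% of 36 promoters of lower genes and in 37.4% of all. Promoters of the higher genes had a median GC content of 59.7%, next to 60.0% for promoters of all tested genes, so the low GC content of these genes was in the transcripts and not in this window. A match describes the letters of the window only.

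Other lists with no edgeR call included actin and Arp2/3 genes (median -0.23 over 23), Rac and Cdc42 signalling genes (-0.16 over 27), ribosomal proteins (-0.18 over 36), heat shock genes (-0.14 over 13) and MHC class I genes (0.14 over 19). DESeq2 called 5, 2, 0, 1 and 0 of them, voom called 2 of the actin genes and none of the rest, and 12, 7, 7, 4 and 2 had an unadjusted p under 0.05. Markers of other cell types had no call in edgeR, DESeq2 or voom, at medians of 1.06 for B and plasma cells, 0.93 for adipocytes, 0.36 for dendritic cells, -0.03 for endothelium, -0.07 for fibroblasts, -0.11 for epithelium and -0.76 for skeletal muscle. Of these only the endothelial list had a member, 1, at an unadjusted p under 0.05. Without paclitaxel 2 the medians were -0.46 for B and plasma cells, 0.08 for adipocytes and 0.14 for dendritic cells, and without vehicle 3 that for skeletal muscle was 0.05. The endothelial, fibroblast and epithelial medians also crossed 0 in leave-one-out fits, reaching 0.02, 0.09 and 0.15.

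**Figure D4:**
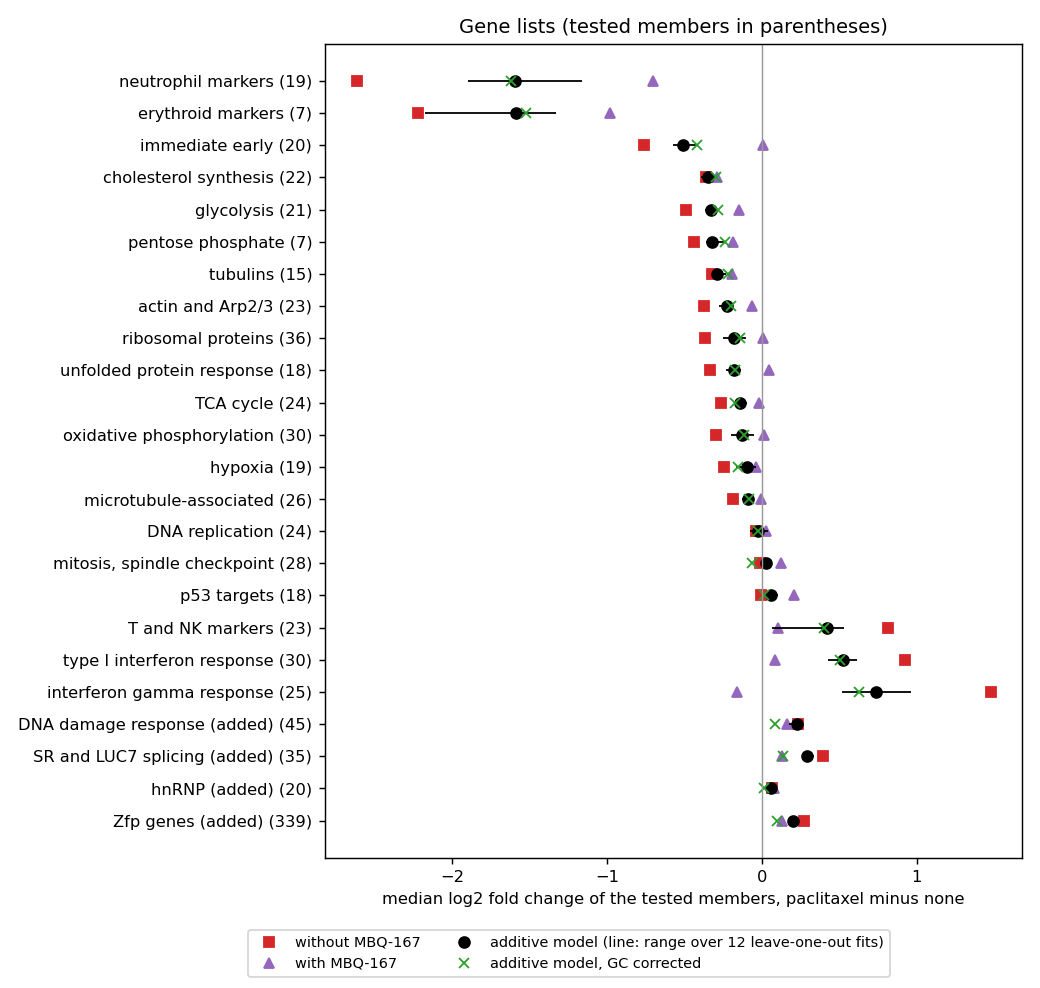
Median log2 fold change for paclitaxel (horizontal axis) over the tested members of 24 gene lists, whose sizes are in parentheses, for the additive model with its range over 12 leave-one-out fits, for each MBQ-167 state, and after GC correction. Neutrophil and erythroid lists sit lowest, at -1.59, cholesterol synthesis is nearly equal in both states, and the interferon gamma list is at 1.48 without and -0.16 with MBQ-167.

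More genes passed in the tumours without MBQ-167. There, paclitaxel minus vehicle gave 1033 calls (5.66%; 578 higher, 455 lower). With MBQ-167 present, combination minus MBQ-167 gave 0 calls in edgeR (0%; 940 genes at an unadjusted p under 0.05, smallest adjusted p 0.879; 1 call in DESeq2 and 0 in limma voom). All 183 genes of the additive model had the same sign in both states, which such an average favours, and 168 of them were larger without MBQ-167. Their medians were 0.78 and 0.46 for higher genes and -0.79 and -0.49 for lower genes. Of the 578 genes higher without MBQ-167, 82.4% were above 0 with it (51.3% of all genes were), at a median of 0.22 against 0.90. Of the 455 lower genes, 65.9% were below 0 with it (48.7% of all), at a median of -0.08 against -0.65. These genes were chosen by their effect without MBQ-167, which by itself makes the other median smaller, so the pairs of medians do not show a weaker effect. The pair of effects shares no library but shares the scaling and the estimate of spread, and across all genes their Pearson correlation was 0.185 (Spearman 0.220), a description over genes that are not independent.

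The difference itself passed in 11 genes (0.0603%), none of them among the 183. In 8 the effect was negative without MBQ-167 and less so or positive with it: Fos, Fosb, Atf3 and Jund, all of the AP-1 and ATF families, Klf2, a factor of quiescent endothelium and lymphocytes, Dusp1, a MAP kinase phosphatase, Fkbp5, a glucocorticoid-induced chaperone, and Gm11175, an antisense transcript within Jund. The opposite order was seen in Tmem229b, Ch25h, which makes an antiviral oxysterol, and Zbp1, an interferon-induced nucleic acid sensor. Fosb gave -3.43 without and 1.38 with MBQ-167, and Ch25h 1.89 and -1.15. For 9 of the 11 the signs were opposite, so an average over the MBQ-167 states describes neither state for them. In contrast Sycp3, Xpo1, Ier3, Ccng1, Rpe, C5ar1 and Insig1, picked after their values were seen, differed between the states by at most 0.14 on the log2 scale. With 3 libraries a group, the SE of such a difference limits what it can show: a difference that did not pass is not evidence of equal effects.

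**Figure D5:**
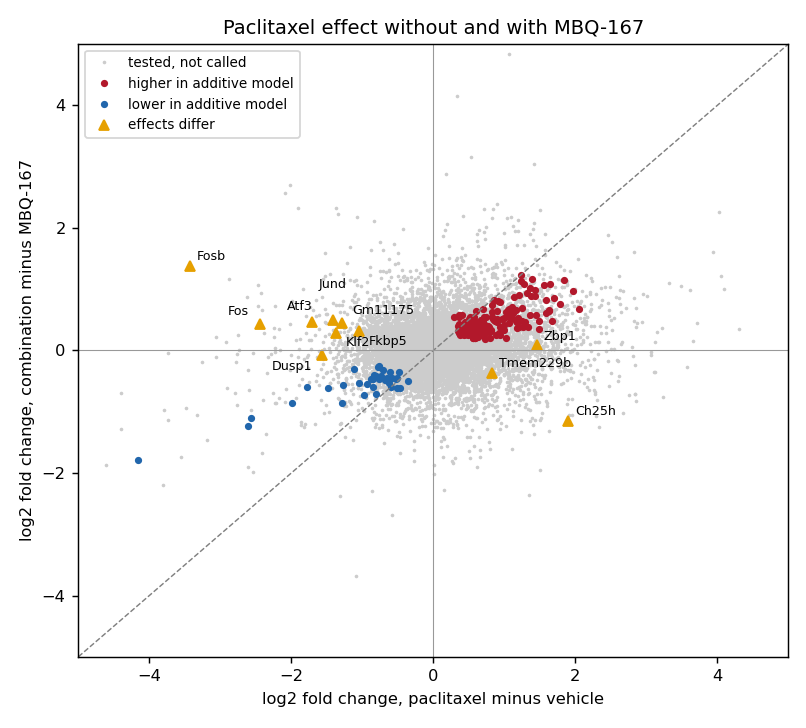
Each point is a gene, with the log2 fold change for paclitaxel minus vehicle on the horizontal axis and combination minus MBQ-167 on the vertical axis; 5 of 18252 genes lie outside the plotted range. Genes called in the additive model lie in the lower left and upper right, mostly between the horizontal axis and the dashed line of equal effects, and the 11 genes whose effects differ lie away from that line.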

How the data were processed

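Polyadenylated tumour RNA was sequenced in 12 libraries, 3 in each of 4 groups. The deposited table holds raw counts per gene, made by the authors. The submitters' processing notes name HISAT2, GRCm38, HTSeq and DESeq2. Versions, annotation and strandedness: not given in the sources used here. It has 46078 genes, 15275 of them without a count in any library. Exon overlaps, biotypes and GC content came from GENCODE vM21 (GRCm38) for 18144 of the genes tested, and promoters from RefSeq.

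Genes were kept by filterByExpr of edgeR 4.0.16 (minimum count 10) and fitted by its quasi-likelihood test with TMM scaling. The additive model (paclitaxel, MBQ-167) had 9 residual degrees of freedom and a biological coefficient of variation of 0.221, and a 4-group model with 8 gave the effects within MBQ-167 states. P-values were adjusted by Benjamini-Hochberg over all genes, and adjusted p under 0.05 was a call. CPM values use TMM-corrected library sizes. The fits were tested on simulated data. DESeq2 1.42.0, limma 3.58.1 (voom), other scaling and filters, a GC offset (spline with 5 degrees of freedom), a neutrophil covariate and leaving out each library were alternatives. The neutrophil covariate is the mean log2 level of the neutrophil list, so those genes are tested against themselves there. In the lists, 1 gene was not matched.

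The comparison and the 39 gene lists were chosen with earlier results of these data known, and 4 further lists after these values were seen. Lists are described by counts and medians, without a test. Named genes are the 12 largest changes per direction among called genes that average 1 CPM or more and whose libraries do not overlap, up to 3 called members of each list, and fixed genes: Abcb1a, Abcb1b, Tubb3, Tubb2b, Tubb5, Mki67, Cdkn1a, Fos, Slc2a1, S100a8 and Hba-a1. Some genes that the rule or a list holds are not reported here. Other genes named were chosen after their values were seen. Of 192 called or named genes, 76 share exon positions with another gene.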

Additional observations from a re-analysis of the deposited data

Results flagged for a closer look

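Within the 6 libraries with and the 6 without paclitaxel, 96 groups of 6 values were examined for a library far from the others, and 8 were found. Chance gives about 1 in 20. Vehicle 3 was the distant library in 6 of the 8, and in each it was the highest: Ngp at 112.1 CPM, S100a8 at 373.6 CPM, S100a9 at 403.0 CPM, Abcb1a at 16.3 CPM, Abcb1b at 113.6 CPM and Mki67 at 237.4 CPM. Among the treated libraries, paclitaxel 1 was highest for S100a9 at 82.5 CPM and combination 3 for Gm26652 at 6.59 CPM.

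The paclitaxel effect with MBQ-167 minus that without it passed the edgeR interaction test in 11 genes. On the log2 scale the difference was 4.81 for Fosb, 2.88 for Fos, 2.17 for Atf3, 1.90 for Jund, 1.73 for Gm11175, 1.65 for Klf2, 1.49 for Dusp1 and 1.36 for Fkbp5. It was -3.04 for Ch25h, -1.37 for Zbp1 and -1.19 for Tmem229b. Jund and Gm11175 overlap on opposite strands, so their reads cannot be told apart.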

How the results depend on the processing

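The numbers of calls changed with the processing more than the directions did. All 183 genes kept their sign in the DESeq2, voom, RLE, filter, block, neutrophil and leave-one-out fits. They were selected in these same libraries, which favours a kept sign. With GC correction, 138 of 146 higher genes and 36 of 36 lower genes kept it. Against 147 higher and 36 lower genes, DESeq2 called 595 and 360, no filter on low counts 376 and 238, the 4-group average 403 and 179, and both GC correction and the neutrophil covariate 0 and 0. Leaving out 1 library gave 0 to 182 higher and 0 to 52 lower genes, from fewer samples. The replicate block left 66 and 19 calls, with 0 calls in the neutrophil, immediate early and type I interferon lists and list medians of -1.62, -0.50 and 0.52. Same-numbered libraries did not consistently deviate together (18 correlations of -0.175 to 0.252, 7 above 0.1, and 6 of 12 libraries closest to their own number), so the numbers were not taken to pair libraries. Without MBQ-167, the 1033 calls became 1772 in DESeq2, 1554 without a filter, 345 with GC correction, 187 with the neutrophil covariate and 230 to 1139 with 1 library left out. With MBQ-167, the 0 calls became 1 in DESeq2 and 4 without a filter. The 11 differences became 153 in DESeq2, 197 without a filter, 7 with the neutrophil covariate and 2 to 16 with 1 library left out. The share of the 3 chromosome 17 features gave an exact p of 0.1, and 0.01 (without combination 1) to 0.21 with 1 library left out. The cause of these changes was not tested. Of 1027 values of named genes, 617 kept their side of the threshold and their direction, 394 lost the call and 12 gained it. A called gene turned its sign in 1: Ccng1, at -0.074 with GC correction. In 3 more the sign turned with no call in either fit. Of 989 list medians, 960 stayed within the spread. Voom (161 and 48), RLE factors (132 and 37) and the stricter filter (166 and 43) gave similar numbers. Depth of 11540557 to 17001562 counts limits the genes near 1 CPM most.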
